A study of Homo sapiens with 60 samples.

Results

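Saengmaek-san is a traditional decoction of ginseng root, an Ophiopogon or Liriope tuber and Schisandra fruit. Its hot-water extract was given for 24 h to A549 cells, an established human lung adenocarcinoma line that carries a KEAP1 mutation and wild-type p53. The comparison described here set the 3 libraries at the highest dose, 500 µg/mL, against the 3 vehicle libraries, 6 libraries of the 60 sequenced. Members were taken from the extract, dose and replicate in the sample labels and from no measured value. Per the labels the vehicle was 0.1% DMSO, whereas the description of the series gave 2%. The solvent of the extracts is not given in the sources used here. The labels print 500, 100 and 20 µg/mL for every extract. The description of the series instead has extracts with an IC20 (20% inhibitory dose) under 500 dosed at that value and its dilutions. Doses are given here as the labels print them. All groups were grown in the same medium and collected after the same time. Where other groups are used they are Saengmaek-san at 100 and 20 µg/mL, Guibi-tang (another decoction) at 500 µg/mL, and the single herbs Menthae Herba and Saposhnikoviae Radix at 20 µg/mL, each with 3 libraries. Whether replicates were separate cultures is not stated in the labels. The p-values therefore speak only of spread among the libraries at hand, which may be technical.

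Ginseng, Schisandra and their saponins and lignans are mostly studied for effects on oxidative stress and on heart and lung injury. Several systems that read such stress in epithelial cells are described below. Krüppel-like factors (KLFs) are zinc-finger transcription factors, some of them induced within minutes by flow, growth factors or kinase signals. Selenoproteins use selenocysteine, which is encoded by an in-frame UGA codon, and most of them are redox enzymes. ATF4 is the transcription factor of amino acid and ER stress, and YAP acts with TEAD factors on genes of cell spreading and tension.

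Saengmaek-san 500 libraries held 19765748 to 30250823 counts and vehicle libraries 29047032 to 35308791. Levels are given as CPM, the count as a share of the TMM-scaled library total in the usual CPM unit, unless called raw CPM, which uses the plain total. A549 and lung epithelial markers were in place: their summed level was 12030 to 13010 CPM in Saengmaek-san 500 and 12890 to 13210 CPM in vehicle, led by KRT8, KRT18 and AKR1B10. The lung lineage genes NKX2-1, SFTPB and NAPSA stayed under 1 CPM in both groups. Markers of leukocytes summed to 12.9 to 20.8 CPM in Saengmaek-san 500 and 14.6 to 14.9 CPM in vehicle, most of it CD68 and CD14, and CD3E was at 0 in all 6 libraries. Endothelial markers summed to at most 0.255 CPM in Saengmaek-san 500 and 0.265 CPM in vehicle, with ERG and EMCN at 0. Fibroblast markers, mostly COL1A1, summed to 35.3 to 36.4 CPM in Saengmaek-san 500 and 33.1 to 35.7 CPM in vehicle.

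Some libraries stand apart. Saengmaek-san 500 replicate 3 lies in the later section of the library order, where mitochondrially encoded RNA takes a larger share of counts (12.92 to 22.15% in 29 libraries, against 10.71 to 13.86% in the 31 earlier ones). Its share was 18.02%, against 11.6 and 11.8% in replicates 1 and 2 and 12.1, 12.4 and 12.5% in vehicle. The group means were 13.8% ± 3.66 in Saengmaek-san 500 and 12.3% ± 0.225 in vehicle (SD, n = 3 each), and an exact two-sided permutation test gave p = 1 (smallest possible 0.1). Without replicate 3 the difference turned from 1.48 to -0.633 percentage points. The vehicle libraries stand apart in a second way, checked against the 6 extracts with 3 libraries at each dose (the 3 Soshiho-tang libraries were left out here and below). Over 4 noncoding genes annotated inside copies of the 18S ribosomal RNA gene, Saengmaek-san 500 held 144 ± 12.9 raw CPM and vehicle 422 ± 35.9 raw CPM (SD, n = 3 each), and the 54 libraries of these extracts held 101.5 to 320.1 raw CPM. The vehicle libraries also form a library set of their own by name, so vehicle treatment and library set cannot be told apart. These 4 genes are annotated on the minus strand, and the strand setting of the counting is not given. Whether their counts come from ribosomal RNA itself was not tested. The part of their summed level and of the mitochondrial share in the results below was not tested either, beyond the fits named there.

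**Figure D1:**
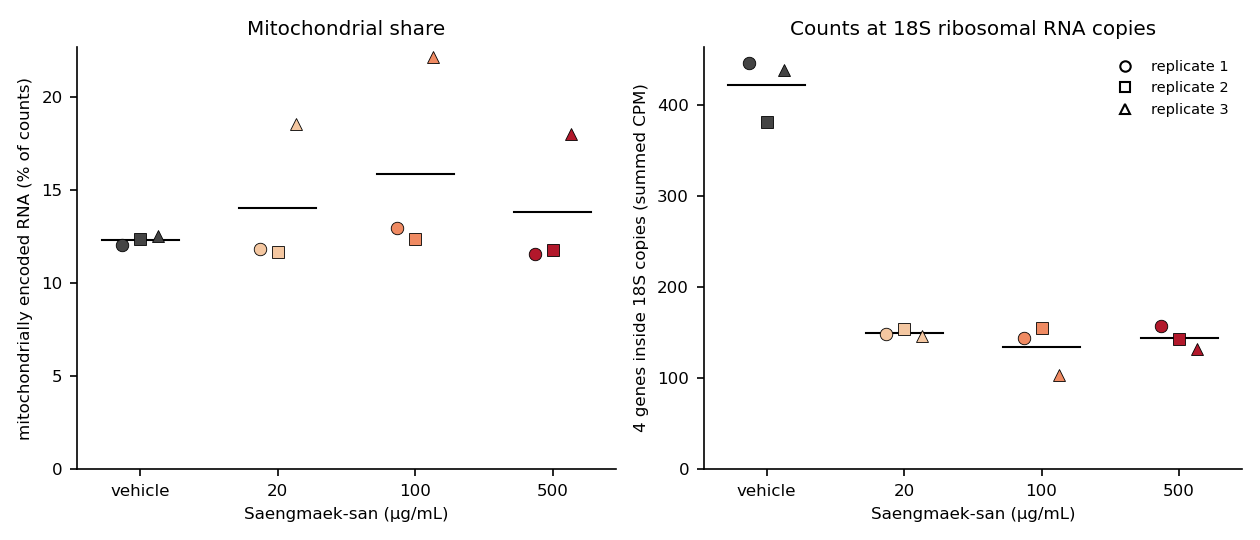
Mitochondrially encoded share of counts (left, percent) and summed raw CPM of 4 genes inside 18S ribosomal RNA copies (right) for each library of vehicle and of Saengmaek-san at 20, 100 and 500 µg/mL; lines are means of 3 libraries. Replicate 3 of every dose has the highest mitochondrial share of its group, and the 3 vehicle libraries lie above all 9 Saengmaek-san libraries on the right.

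Few genes differed between Saengmaek-san 500 and vehicle, and most of them by little. Of 17256 genes tested, 61 rose (0.354%) and 45 fell (0.261%) at an adjusted p under 0.05 by edgeR's quasi-likelihood test with Benjamini-Hochberg adjustment, 106 in all (0.614%). In bulk RNA, a change in the mix of cell states and a change in RNA per cell cannot be told apart. The median absolute log2 fold change of these 106 was 0.25, and 74 of them changed by less than 0.3. None rose 2-fold or more and 3 fell that far. Among the risen genes were transcriptional regulators (KLF2, HES4, BANP, CEBPB, BHLHE40, RFX3) and signalling genes (RHOB, BDKRB2, PLD1). Among the fallen ones were the selenoprotein genes GPX1 and SELENOW, the stress genes CHAC1 and SESN2, and AMOTL2 and CCN1, both targets of YAP. The 6 libraries did not overlap between groups in 2730 genes (15.8%). With 3 libraries a side and no difference, such separation has a probability of 0.1. It held in all but 1 of the 106 genes and was a condition for naming most of them. Where it is given below it describes the values and adds no support to a call.

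The count of 106 depends on single libraries and on the model. It was 53 without Saengmaek-san 500 replicate 2 and 42 without replicate 3, and 46, 38 and 23 without vehicle replicates 1, 2 and 3. Of the 106 genes, 18 passed in all 6 fits that each left out 1 library (11 higher and 7 lower), and 21 passed in none of them. With only the earlier libraries in the fit, and thus 2 of Saengmaek-san 500, 388 genes passed, 93 of the 106 among them. With the section of the library order as a covariate 376 passed, and these included all 106. With only these 6 libraries in the fit 0 passed, while 1330 had an unadjusted p under 0.05.

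The vehicle libraries lay outside the range of the 54 libraries of the 6 extracts in 40 of the 106 genes, against 94 (0.545%) of all 17256. The 106 were called with these same vehicle libraries, so a larger share among them was favoured in advance. Vehicle was the lowest in 25 of the 61 risen genes and the highest in 15 of the 45 fallen ones. In 0 of the 106 did the 3 Saengmaek-san 500 libraries lie outside the range of all others. The levels in the 51 libraries of the other 17 extract groups are therefore given beside the main genes below.

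**Figure D2:**
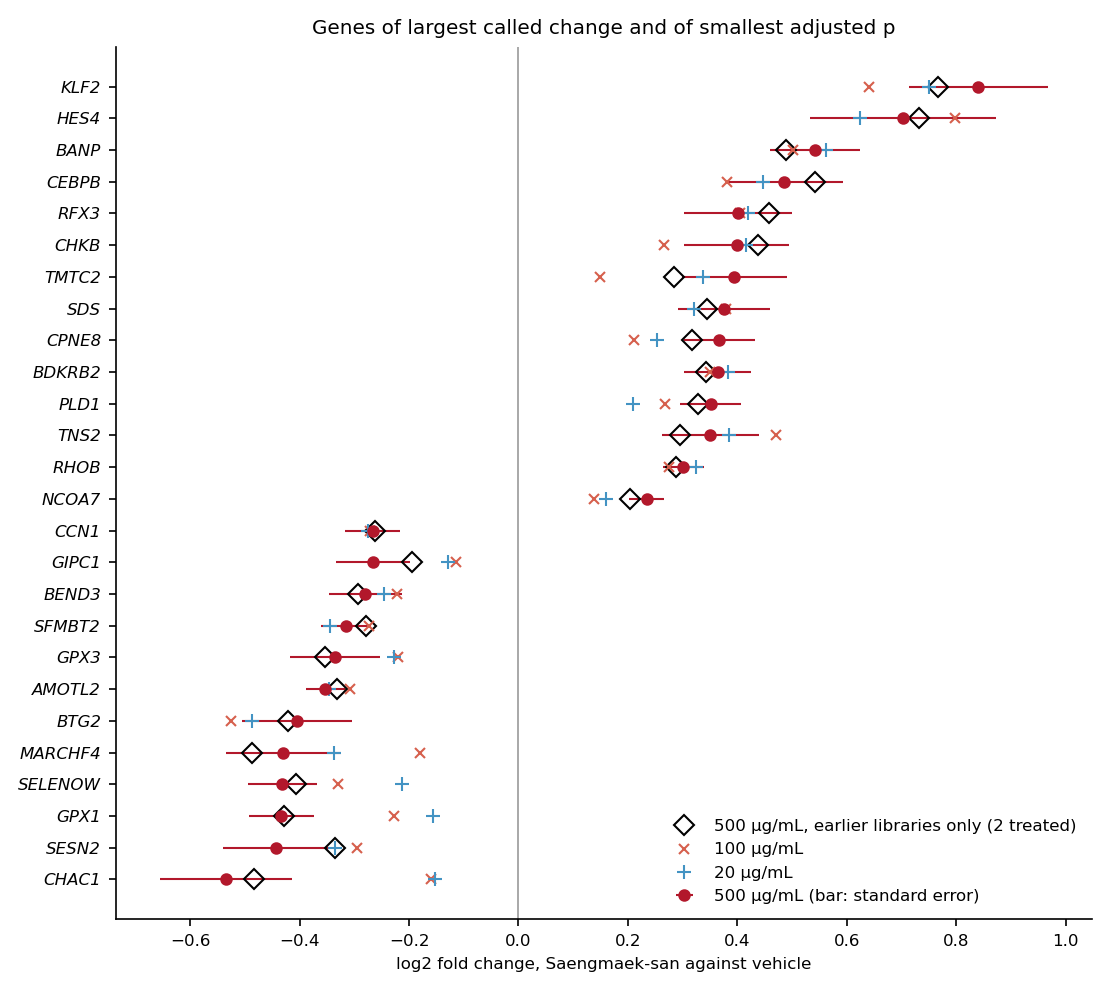
Log2 fold change against vehicle (horizontal axis) of the 12 highest and 12 lowest called genes and the genes of smallest adjusted p: red points and bars are Saengmaek-san 500 µg/mL with standard errors, diamonds the same from earlier libraries only, crosses 100 µg/mL and plus signs 20 µg/mL. Of the genes plotted KLF2 rises most at 0.84 and CHAC1 falls most at -0.53, and the 20 µg/mL values of KLF2, BANP, RHOB and AMOTL2 lie close to those at 500 µg/mL.

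KLF2, a transcription factor known from endothelial flow responses and T cell quiescence, had the largest rise of any called gene that averaged at least 5 CPM in 1 of the groups. It had 10.9, 8.56 and 11.4 CPM in Saengmaek-san 500, against 4.99, 5.91 and 6.18 CPM in vehicle. All 3 Saengmaek-san 500 values lay above all vehicle values, and the log2 fold change was 0.84 ± 0.13 (SE; adjusted p = 8.35e-05, and 3.22e-05 to 0.00302 with 1 library left out). It was 0.77 from the earlier libraries alone. The 51 libraries of the other extract groups held 6.54 to 12.9 CPM (median 9.54), all above vehicle.

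KLF2 lies on chromosome 19 (chr19:16324817-16327874, plus strand). Its promoter is known for a MEF2 element through which the ERK5 kinase pathway acts, and the stretch that holds it is shown because KLF2 led the called genes of at least 5 CPM. In the sequence, from RefSeq on GRCh38.p14 (chr19:16324666-16324816, plus strand), capitals mark the palindrome CTAAATTTAG, which ends 110 bases before the RefSeq start. Of 35116 promoters of the same table, 20 (0.057%) hold it within 250 bases before the start on either strand.
KLF2 promoter: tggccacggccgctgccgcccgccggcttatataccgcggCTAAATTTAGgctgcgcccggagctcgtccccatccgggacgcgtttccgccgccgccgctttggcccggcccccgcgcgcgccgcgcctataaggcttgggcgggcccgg

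Of 12 KLF genes tested, 2 rose and 0 fell, where 0.354% of all genes rose, with a median log2 fold change of 0.12 against 0.002 over all genes. The second was KLF6, an injury-induced family member of epithelium, with 64.2, 63.0 and 61.7 CPM in Saengmaek-san 500 and 53.3, 56.1 and 54.6 CPM in vehicle. Its groups did not overlap (log2 fold change 0.20 ± 0.04 SE, adjusted p = 0.00391, called in all 6 leave-one-out fits). KLF10 and KLF11, both TGF-beta-inducible repressors, had log2 fold changes of 0.33 and 0.29 that did not pass (adjusted p of 0.127 and 0.293). KLF4 was the lowest at -0.14 and did not pass either. This list and those below were chosen with earlier results of these data known. Their shares beside those of all genes describe the values and add no support.

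Other transcriptional regulators rose by less. BANP (chr16:87949244-88077318, plus strand), a nuclear protein that binds unmethylated CG-rich motifs in promoters, had 15.2, 15.1 and 17.0 CPM in Saengmaek-san 500 and 10.8, 10.8 and 10.7 CPM in vehicle. The groups were well apart (log2 fold change 0.54 ± 0.08 SE, adjusted p = 8.82e-05), and the call held with any 1 library left out. CEBPB, a bZIP factor of acute phase and stress responses, had 95.7, 79.8 and 76.4 CPM in Saengmaek-san 500 against 48.9, 63.3 and 67.9 CPM in vehicle. Its log2 fold change was 0.49 ± 0.11 (SE, adjusted p = 0.0167), and 2 of the 6 leave-one-out fits lost the call. HES4, a bHLH repressor downstream of Notch, averaged 8.05 ± 1.48 CPM in Saengmaek-san 500 and 4.94 ± 1.28 CPM in vehicle (SD, n = 3 each). It was the only called one of 12 Notch pathway genes tested, where 0.354% of all genes rose. Its log2 fold change was 0.70 ± 0.17 (SE, adjusted p = 0.0415), and it was called in 1 of 6 leave-one-out fits. BHLHE40, a bHLH repressor tied to hypoxia and the clock, averaged 158 ± 14.1 CPM in Saengmaek-san 500 and 126 ± 3.00 CPM in vehicle (log2 fold change 0.32 ± 0.07 SE, adjusted p = 0.0121, lost in 3 of 6 fits). RFX3, a factor of ciliated cells, averaged 10.6 ± 0.972 CPM in Saengmaek-san 500 and 8.08 ± 0.281 CPM in vehicle, a log2 fold change of 0.40 ± 0.10 (SE, adjusted p = 0.0431) that was called in 1 of 6 leave-one-out fits.

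The risen gene of smallest adjusted p was RHOB (chr2:20447074-20449445, plus strand), which encodes an endosomal signalling protein induced quickly by growth factors and DNA damage. It had 117, 107 and 115 CPM in Saengmaek-san 500 and 90.0, 90.96 and 94.2 CPM in vehicle. The groups did not overlap, and the log2 fold change was 0.30 ± 0.04 (SE, adjusted p = 2.96e-06, at most 0.000168 with 1 library left out). NCOA7, a coactivator with a role in the oxidation response, averaged 199 ± 6.81 CPM in Saengmaek-san 500 and 169 ± 4.68 CPM in vehicle (log2 fold change 0.23 ± 0.03 SE, adjusted p = 1.45e-05). In the 51 other extract libraries RHOB held 103 to 127 CPM and NCOA7 182 to 231 CPM, above vehicle throughout.

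A further 4 of the named risen genes passed in all 6 leave-one-out fits. BDKRB2, the constitutive bradykinin receptor of airway epithelium, had 25.7, 25.6 and 26.8 CPM in Saengmaek-san 500 and 20.4, 19.8 and 20.4 CPM in vehicle (log2 fold change 0.36 ± 0.06 SE, adjusted p = 0.000529). PLD1, which makes phosphatidic acid from phosphatidylcholine, averaged 24.1 ± 0.961 CPM in Saengmaek-san 500 and 18.9 ± 1.26 CPM in vehicle (0.35 ± 0.06 SE, adjusted p = 0.000162). CPNE8, a calcium-dependent membrane-binding copine, averaged 22.4 ± 1.74 CPM in Saengmaek-san 500 and 17.3 ± 0.267 CPM in vehicle (0.37 ± 0.06 SE, adjusted p = 0.00125). BTG1, an antiproliferative gene, averaged 65.0 ± 1.97 CPM in Saengmaek-san 500 and 54.9 ± 1.53 CPM in vehicle (0.24 ± 0.04 SE, adjusted p = 0.00125).

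Most of the remaining named risen genes lost their call when single libraries were left out. CHKB (choline kinase), SDS (serine dehydratase), TMTC2 (an O-mannosyltransferase of the ER) and TNS2 (a focal adhesion tensin) had log2 fold changes of 0.40, 0.38, 0.39 and 0.35. Each lost its call in 4 or 5 of the 6 leave-one-out fits. CHKB overlaps a readthrough transcript with its neighbour CPT1B, so its count is uncertain. ITGA2, the collagen-binding integrin alpha chain, rose by 0.29 and lost its call in 1 of 6 fits. NFKBIA, which encodes the inhibitor of NF-kB, rose by 0.26 (adjusted p = 0.0495) and CPT2, an enzyme of mitochondrial fatty acid oxidation, by 0.26 (adjusted p = 0.0478), each called in 1 of 6 fits.

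**Figure D3:**
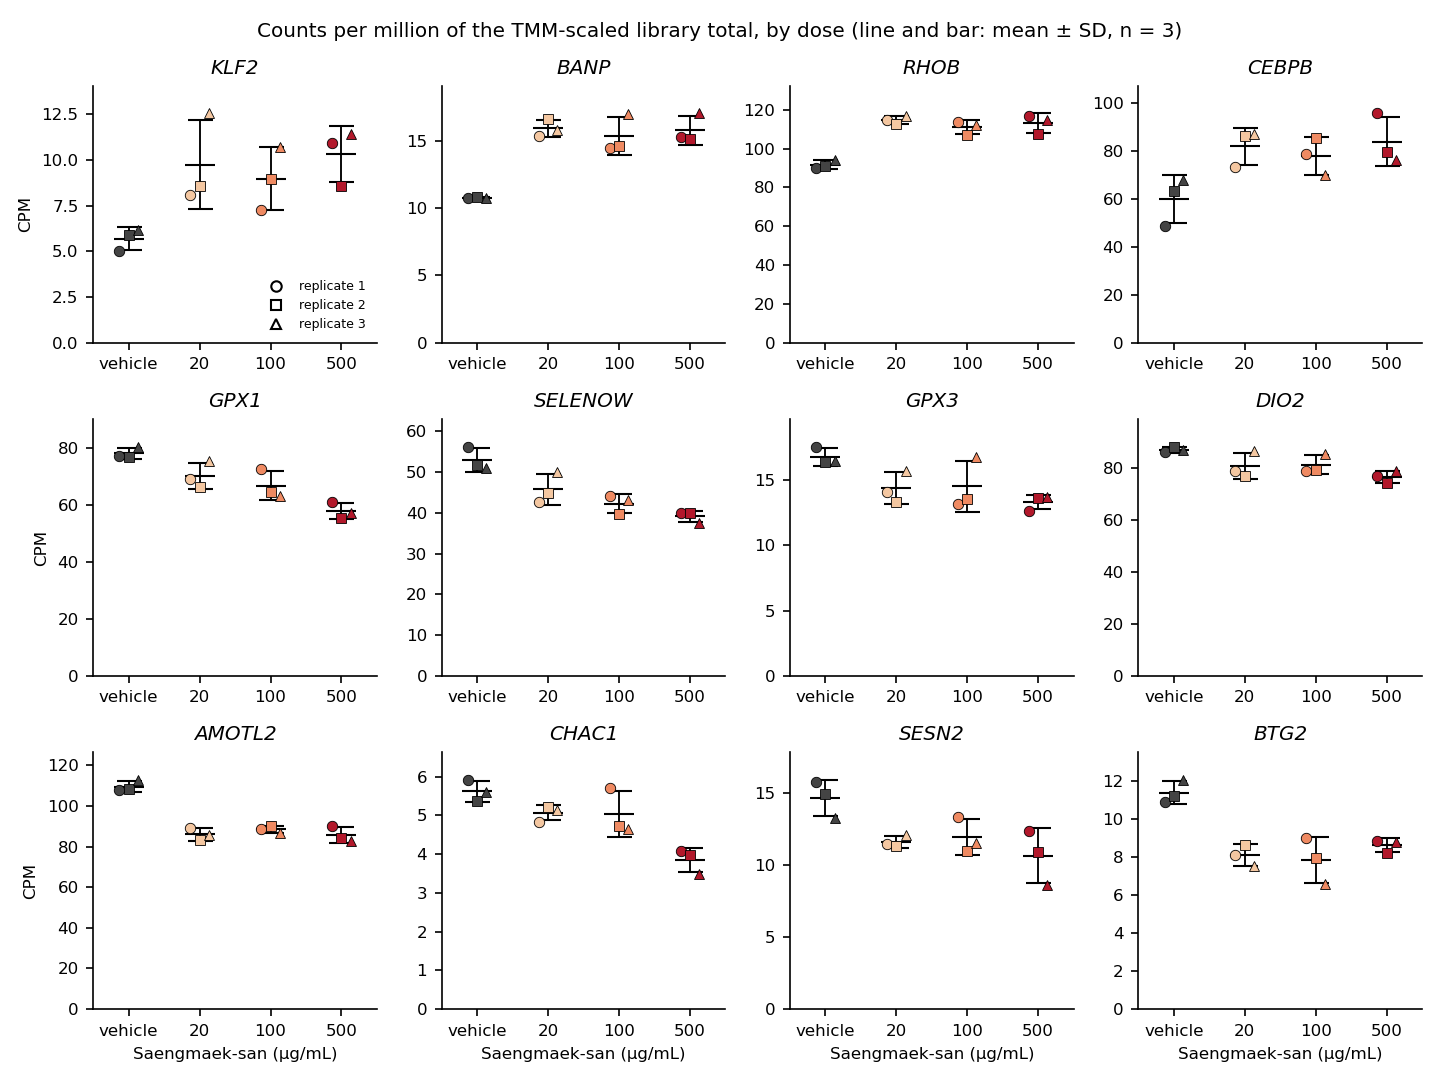
CPM (vertical axis, from 0) of 12 genes in each library of vehicle and of Saengmaek-san at 20, 100 and 500 µg/mL; symbols mark replicates, lines and bars are mean ± SD of 3 libraries. KLF2, BANP, RHOB and AMOTL2 have left the vehicle level at 20 µg/mL, whereas the means of GPX1, SELENOW and CHAC1 are lowest at 500 µg/mL.

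Of 21 selenoprotein genes tested, 4 fell and 0 rose, where 0.261% of all genes fell, and 17 of 21 had a negative log2 fold change (median -0.07 against 0.002 over all genes). Against the same vehicle libraries 18 of 21 were negative at both 20 and 100 µg/mL, with medians of -0.07 and -0.08. GPX1 (chr3:49357171-49358600, minus strand), the cytosolic glutathione peroxidase, had 60.97, 55.4 and 57.3 CPM in Saengmaek-san 500 and 77.2, 76.9 and 80.5 CPM in vehicle. Every Saengmaek-san 500 value lay below every vehicle value, and the log2 fold change was -0.43 ± 0.06 (SE, adjusted p = 1.55e-05). SELENOW (chr19:47778572-47784686, plus strand), a small redox selenoprotein, had 39.8, 40.0 and 37.5 CPM in Saengmaek-san 500 against 56.2, 51.6 and 50.9 CPM in vehicle. These groups did not overlap either (-0.43 ± 0.06 SE, adjusted p = 5.55e-05), and both genes were called in all 6 leave-one-out fits. GPX3, the secreted glutathione peroxidase, averaged 13.3 ± 0.569 CPM in Saengmaek-san 500 and 16.8 ± 0.674 CPM in vehicle (SD, n = 3 each), a log2 fold change of -0.34 ± 0.08 (SE, adjusted p = 0.0429) that was called in 0 of 6 leave-one-out fits. DIO2, the deiodinase that activates thyroid hormone, averaged 76.7 ± 2.33 CPM in Saengmaek-san 500 and 87.1 ± 1.10 CPM in vehicle (-0.18 ± 0.04 SE, adjusted p = 0.0128), and lost its call in 3 of 6.

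The selenocysteine codons of these 4 genes are shown because the UGA they share is what defines the list; DIO2 has 2. Each line gives coding sequence from the GENCODE 29 transcripts on GRCh38, with 12 bases on each side and the selenocysteine TGA in capitals.
GPX1 codon 49 (chr3:49358132-49358134, minus strand): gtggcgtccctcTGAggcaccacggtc
SELENOW codon 13 (chr19:47780732-47780734, plus strand, the stretch crossing an exon junction): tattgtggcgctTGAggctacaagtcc
GPX3 codon 73 (chr5:151025469-151025471, plus strand): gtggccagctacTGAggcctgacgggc
DIO2 codon 133 (chr14:80203112-80203114, minus strand): ggctcagccactTGAcctcctttcacg
DIO2 codon 266 (chr14:80202713-80202715, minus strand): ttcagcaagagaTGAaagaaaactaga
In GPX1, SELENOW and GPX3 the codon is followed by a glycine codon ggc, and in DIO2 by cct and aag. GENCODE 29 is the annotation used for positions and may not be the release the authors counted with.

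The other selenoprotein genes gave values that did not pass. SELENOH, a nucleolar member, had a log2 fold change of -0.33 (adjusted p = 0.193), the thioredoxin reductase TXNRD1 -0.18 (adjusted p = 0.478), and GPX4, the lipid hydroperoxidase that blocks ferroptosis, -0.03 (adjusted p = 0.972). Of 9 factors that make or insert selenocysteine, 0 passed, with a median of -0.004. SEPSECS, the synthase, was at -0.16 (adjusted p = 0.574) and SECISBP2, the SECIS-binding protein, at 0.09 (adjusted p = 0.568). Of 30 NRF2 targets 1 fell, OSGIN1, a growth inhibitor (-0.20 ± 0.05 SE, adjusted p = 0.047, called in 1 of 6 leave-one-out fits), and 0 rose. Over all genes 0.261% fell and 0.354% rose. With the section of the library order as a covariate 2 NRF2 targets rose and 1 fell, and the earlier libraries alone gave the same counts (median 0.02 in both). Of 19 antioxidant and glutathione enzymes outside that list 0 passed. In the other 51 extract libraries GPX1 held 47.6 to 81.5 CPM and lay below the vehicle range in 49, and SELENOW held 33.4 to 50.0 CPM, below vehicle throughout. Group means of GPX1 ran from 49.4 CPM in Soyo-san 500 to 73.8 CPM in Okbyeongpung-san 100, and 14 of the other 17 extract groups had a higher mean than Saengmaek-san 500.

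Among 35 ATF4 and amino acid response genes 3 fell and 1 rose (0.261 and 0.354% of all genes), with a median of -0.03. Without Saengmaek-san 500 replicate 3, 1 was called and the median was -0.05. With the section of the library order as a covariate 5 fell and 3 rose, and in the earlier libraries alone 4 fell and 3 rose. The risen one in the main fit was CEBPB, given above. CHAC1, an enzyme that degrades glutathione and a sensitive target of ATF4, had 4.07, 3.98 and 3.49 CPM in Saengmaek-san 500 and 5.91, 5.37 and 5.59 CPM in vehicle. The groups did not overlap, and its log2 fold change of -0.53 ± 0.12 (SE, adjusted p = 0.0224) was the largest fall among called genes with a symbol. The call was kept in 1 of 6 leave-one-out fits, and the fewest counts in a library were 65. SESN2, a sestrin that restrains mTORC1 and responds to both ATF4 and p53, had 12.4, 10.9 and 8.59 CPM in Saengmaek-san 500 against 15.7, 14.9 and 13.3 CPM in vehicle (-0.44 ± 0.10 SE, adjusted p = 0.0167, lost in 4 of 6 fits). SLC7A5, the leucine transporter LAT1, averaged 3272 ± 155.8 CPM in Saengmaek-san 500 and 3594 ± 21.67 CPM in vehicle (-0.14 ± 0.03 SE, adjusted p = 0.048, called in 1 of 6 fits). The regulators themselves did not pass, with ATF4 at -0.12 and DDIT3 at -0.12 (adjusted p of 0.506 and 0.805), and neither did the targets TRIB3 and ASNS (-0.001 and -0.02).

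CHAC1 lies on chromosome 15 (chr15:40952962-40956519, plus strand). Its promoter is known to bind ATF4, and 30 bases around the match are shown because CHAC1 had the largest fall among called genes with a symbol. From RefSeq on GRCh38.p14 (chr15:40953251-40953280, plus strand), capitals mark the match to TGATGNAA, the composite ATF4 and C/EBP element, read here on the other strand and ending 201 bases before the RefSeq start. In GENCODE 29 these bases lie in the first exon of a longer CHAC1 transcript. On either strand, 3.14% of all promoters hold this element within 250 bases before the start.
CHAC1 promoter: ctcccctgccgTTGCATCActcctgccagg

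AMOTL2, an angiomotin that binds YAP and is also induced by it, had the smallest adjusted p of all genes. It had 90.3, 84.2 and 82.5 CPM in Saengmaek-san 500 and 108, 108 and 113 CPM in vehicle. The groups were far apart for their spread, with a log2 fold change of -0.35 ± 0.04 (SE, adjusted p = 1.09e-08, and 6.47e-09 to 1.66e-06 with 1 library left out). With only the 6 compared libraries in the edgeR fit its adjusted p was 0.131, where BANP and SELENOW had 0.0856 each. In the 51 other extract libraries AMOTL2 held 78.2 to 93.5 CPM, below vehicle throughout, and 10 of the 17 groups had a higher mean than Saengmaek-san 500.

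CCN1, a secreted matricellular protein and classical YAP target, had 29.04, 28.2 and 28.2 CPM in Saengmaek-san 500 against 32.7, 33.6 and 36.5 CPM in vehicle. The groups did not overlap (-0.27 ± 0.05 SE, adjusted p = 0.00391), and 1 of the 6 leave-one-out fits lost the call. These were the 2 that fell of 23 YAP and TEAD targets, with 0 risen and a median of -0.05, where 0.261% of all genes fell. With the section of the library order as a covariate 5 of the 23 fell, and in the earlier libraries alone the count was also 5. The targets ANKRD1 (-0.25, adjusted p = 0.113), AXL (-0.17, adjusted p = 0.0642) and CCN2 (-0.13, adjusted p = 0.432) did not pass. Among 20 cytoskeletal and SRF targets 1 fell, ACTG1, cytoplasmic gamma-actin (-0.13 ± 0.03 SE, adjusted p = 0.0495, called in 0 of 6 leave-one-out fits).

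AMOTL2 lies on chromosome 3 (chr3:134355874-134375479, minus strand) and has 2 starts in the promoter table. A stretch of 30 bases before the downstream start is shown because AMOTL2 had the smallest adjusted p in the main fit. In it (RefSeq, GRCh38.p14, chr3:134374499-134374528, minus strand) capitals mark 1 match to the TEAD motif GGAATG on the other strand, ending 63 bases before the start, and inside a first exon of GENCODE 29. On either strand 11.9% of all promoters hold this motif within 250 bases before the start. CCN1 is named only.
AMOTL2 promoter: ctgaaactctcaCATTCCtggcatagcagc

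Of 24 immediate early genes, which respond to growth signals within an hour or so, 3 fell and 1 rose (BTG1, above), against 0.261 and 0.354% of all genes, with a median of -0.06. Without Saengmaek-san 500 replicate 3, 1 was called and the median was -0.09, and with the section of the library order as a covariate 7 fell. BTG2, an antiproliferative p53 target, had 8.83, 8.18 and 8.80 CPM in Saengmaek-san 500 and 10.9, 11.2 and 12.04 CPM in vehicle. Its groups did not overlap (-0.40 ± 0.10 SE, adjusted p = 0.0444), yet it was called in 0 of 6 leave-one-out fits. DUSP5, a nuclear ERK phosphatase, fell by 0.21 ± 0.04 (SE, adjusted p = 0.00748, lost in 2 of 6 fits) on the log2 scale and FOSL2, an AP-1 subunit, by 0.18 ± 0.04 (SE, adjusted p = 0.0115, lost in 3 of 6). EGR1, FOS and JUN had log2 fold changes of -0.38, 0.27 and -0.04 and did not pass. Of 24 p53 targets 2 fell, SESN2 and BTG2, and 0 rose, with a median of -0.01. Without Saengmaek-san 500 replicate 3 the median turned to 0.04 with 0 called, and with the covariate it was 0.05. CDKN1A and MDM2 were at -0.07 and -0.12 and did not pass (adjusted p of 0.767 and 0.517).

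The other fallen genes named by the rule have varied roles. SFMBT2, a Polycomb-associated protein, averaged 52.9 ± 2.71 CPM in Saengmaek-san 500 and 66.0 ± 1.61 CPM in vehicle (SD, n = 3 each). Its log2 fold change of -0.31 ± 0.05 (SE, adjusted p = 4.36e-05) was called in all 6 leave-one-out fits. MARCHF4, a membrane ubiquitin ligase, BEND3, a repressor of heterochromatin, and GIPC1, a trafficking adaptor, fell by 0.43, 0.28 and 0.27. MARCHF4 and BEND3 were called in 0 of 6 leave-one-out fits and GIPC1 in 1. CCND1, the G1 cyclin, averaged 397 ± 11.4 CPM in Saengmaek-san 500 and 441 ± 4.80 CPM in vehicle (-0.15 ± 0.03 SE, adjusted p = 0.0102, lost in 4 of 6 fits). KRT80, an epithelial keratin, averaged 101 ± 1.37 CPM in Saengmaek-san 500 and 115 ± 0.464 CPM in vehicle (-0.19 ± 0.04 SE, adjusted p = 0.00603) and was kept in all 6.

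The 3 called genes that fell 2-fold or more are all noncoding genes without a symbol. ENSG00000280800 (chr21:8210384-8211306, minus strand) and ENSG00000280614 (chr21:8393419-8394341, minus strand) lie inside the 18S ribosomal RNA copies RNA18SN2 and RNA18SN3. Their log2 fold changes were -2.20 and -1.23. Their reads are shared among near-identical copies, so the split between them is uncertain, and they are part of the summed 18S level given above. In the 51 other extract libraries ENSG00000280614 reached 163.1 CPM, with 1 library above the vehicle range and 1 within it. ENSG00000232220 had 0.098, 0.064 and 0 CPM in Saengmaek-san 500 and 0.714, 0.339 and 0.298 CPM in vehicle, too few counts to describe further.

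**Figure D4:**
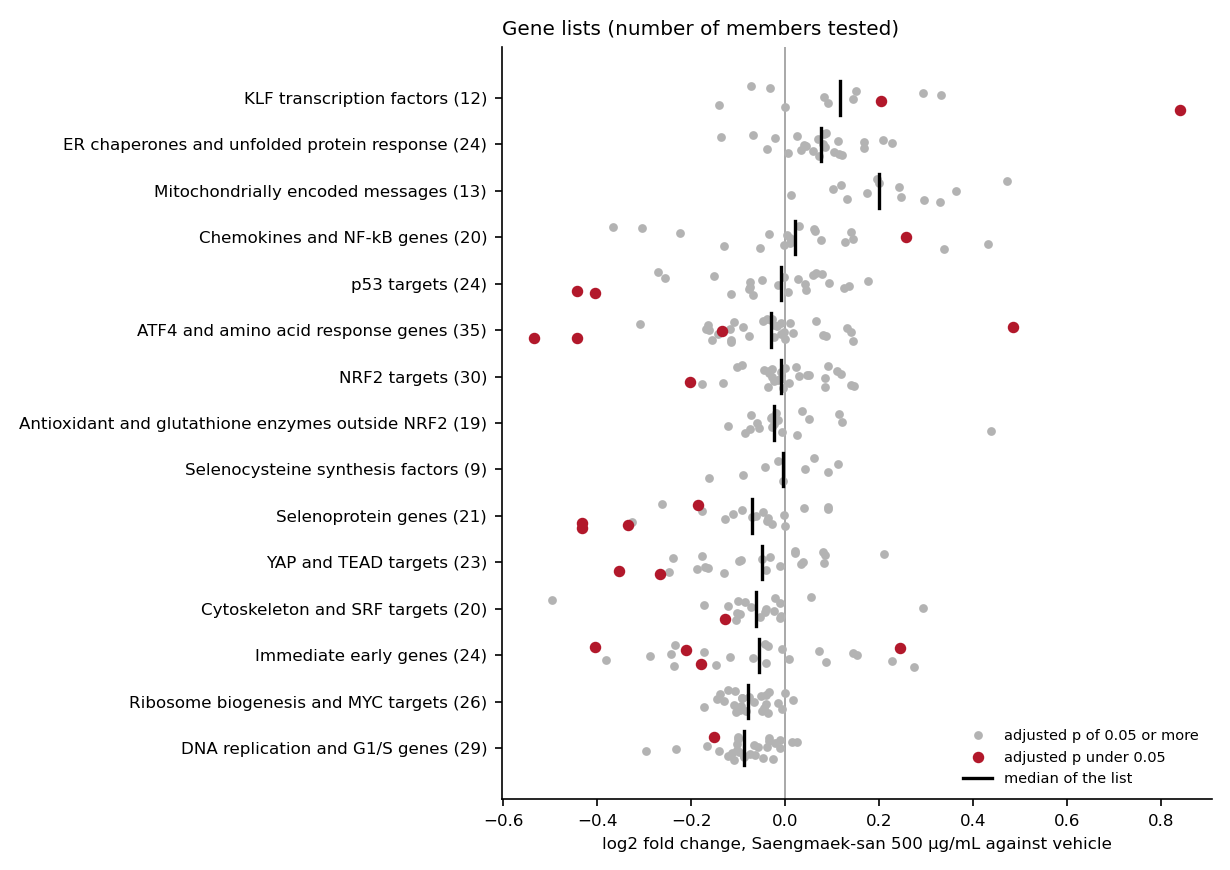
Log2 fold change of Saengmaek-san 500 µg/mL against vehicle (horizontal axis) for every tested member of 15 gene lists; red points passed an adjusted p under 0.05, grey points did not, and black bars are list medians. Called members are few in every list, all 4 in the selenoprotein list lie left of 0, and the mitochondrial list has the highest median of those shown, 0.20.

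In several lists most members had the same sign while few or none passed, where 0.614% of all genes passed. All 13 mitochondrially encoded messages had positive log2 fold changes (median 0.20) with 0 called. With the section of the library order as a covariate their median was -0.09, and without Saengmaek-san 500 replicate 3 it was -0.11. Of 24 ER chaperone and unfolded protein response genes 0 passed, and 20 were positive (median 0.08, or 0.04 without replicate 3). MANF, a secreted ER stress protein, was at 0.23 (adjusted p = 0.224) and XBP1, the spliced regulator of that response, at 0.21 (adjusted p = 0.0824). Of 29 DNA replication and G1/S genes CCND1 alone passed, and 27 were negative (median -0.09, or -0.06 without replicate 3). Of 26 ribosome biogenesis and MYC targets 0 passed and 24 were negative (median -0.08), and of 26 mitosis genes 0 passed (median -0.01, or -0.07 without replicate 3). With the section of the library order as a covariate 3 mitosis genes passed, all lower.

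Lists for other reactions to plant extracts held few or no called members at 500 µg/mL, where 0.614% of all genes passed. At that share, 0 called members in lists this short says little. Chemokine and NF-kB genes had 1 of 20 called, NFKBIA, and a median of 0.02. In AhR targets, which respond to plant flavonoids, 1 of 10 passed, SLC7A5 already given, while CYP1A1, the classical target, was at 0.51 (adjusted p = 0.319). Interferon and MHC class I genes (23 tested), heat shock genes (20), cholesterol synthesis genes (24), lysosome and autophagy genes (27), hypoxia and glycolysis genes (29) and cytosolic ribosomal protein genes (38) had 0 called, with medians between -0.04 and 0.04. CYP24A1, the vitamin D hydroxylase, was the called one of 10 oestrogen and nuclear receptor genes (0.15 ± 0.04 SE, adjusted p = 0.041), and PDE4B, a cAMP phosphodiesterase, of 13 cAMP and CREB targets (0.15 ± 0.04 SE, adjusted p = 0.0412). Both calls were lost in 5 or 6 of the 6 leave-one-out fits.

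The lower doses, 20 and 100 µg/mL, were compared with the same vehicle libraries. At 20 µg/mL 78 genes passed (0.452%; 53 higher, 0.307%, and 25 lower, 0.145%), and at 100 µg/mL 115 (0.666%; 71 higher, 0.411%, and 44 lower, 0.255%). With 1 library left out these counts were 17 to 68 at 20 µg/mL and 23 to 127 at 100 µg/mL, lowest in both cases without vehicle replicate 2. Replicate 3 of each dose also lies in the later section of the library order, and without it 22 and 36 genes passed. KLF2 had log2 fold changes of 0.75, 0.64 and 0.84 at 20, 100 and 500 µg/mL, BANP 0.56, 0.50 and 0.54, RHOB 0.32, 0.27 and 0.30, and AMOTL2 -0.35, -0.31 and -0.35, all past the threshold. None of these 4 genes followed the order of the doses.

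A second set was lowest at 500 µg/mL. GPX1 averaged 78.2 CPM in vehicle and 70.3, 66.8 and 57.9 CPM at 20, 100 and 500 µg/mL, with log2 fold changes of -0.16, -0.23 and -0.43 of which the last alone passed. SELENOW had -0.21, -0.33 and -0.43 and passed at 100 and 500 µg/mL. CHAC1 had -0.15, -0.16 and -0.53 and passed at 500 µg/mL. NPTX1, which encodes a secreted neuronal pentraxin, had 261, 264 and 255 CPM at 500 µg/mL, against 285, 297 and 293 CPM in vehicle. Its log2 fold changes were -0.01, 0.01 and -0.17 at 20, 100 and 500 µg/mL, and the last passed (adjusted p = 0.00818, lost in 3 of 6 leave-one-out fits). Among genes called at the lower doses, EBF1, a B-cell and stromal factor, had -0.66, -0.41 and -0.38 at 20, 100 and 500 µg/mL and passed at 20 and 100.

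The doses were also compared directly. Between Saengmaek-san 500 and Saengmaek-san 20, edgeR called 0 of 17256 genes (0%), DESeq2 called 2, and 469 had an unadjusted p under 0.05. Between 500 and 100 µg/mL, edgeR called 0, DESeq2 called 2, and 797 had an unadjusted p under 0.05. GPX1 differed by -0.28 between 500 and 20 µg/mL (unadjusted p = 3.18e-05, adjusted p = 0.274), SELENOW by -0.22 and CHAC1 by -0.38 (adjusted p = 1 for both), and NPTX1 by -0.18 between 500 and 100 µg/mL (unadjusted p = 3.04e-06, adjusted p = 0.0524). With the replicate number as a block, edgeR called 1 gene between 500 and 100 µg/mL and 0 between 500 and 20 µg/mL. With no filter on low counts it called 102 and 53. In the unblocked fit no difference of GPX1, SELENOW or CHAC1 between 500 µg/mL and a lower dose passed. The order of the doses itself was not tested.

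A comparison that does not use vehicle set Saengmaek-san 500 against the single herbs Menthae Herba and Saposhnikoviae Radix at 20 µg/mL, with 6 herb libraries. Doses differ by design here, and the herbs are not ingredients of Saengmaek-san. The herb libraries also form another library set by name, and all lie in the earlier section of the library order. Extract and library set therefore cannot be told apart here. It gave 5 called genes, all lower (0.0290%), and 1 when Saengmaek-san 500 replicate 3 was left out. DESeq2 called 17, and 1296 had an unadjusted p under 0.05. KLF2, BANP and RHOB had log2 differences of 0.19, 0.08 and -0.0008, and AMOTL2 -0.02, none of which passed. GPX1 was at -0.19 (adjusted p = 0.348), SELENOW at -0.16 and CHAC1 at -0.26 (adjusted p = 0.653 for both).

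The 5 genes were matrix and secreted factors. TGM2, the tissue transglutaminase that crosslinks matrix, had 544, 518 and 487 CPM in Saengmaek-san 500. It had 564, 613 and 609 CPM in Menthae Herba 20 and 595, 643 and 631 CPM in Saposhnikoviae Radix 20, all higher (log2 difference -0.24 ± 0.04 SE, adjusted p = 0.000286). NPTX1 differed by -0.24 ± 0.03 (SE, adjusted p = 6.61e-06), COL4A1, a basement membrane collagen, by -0.22 ± 0.04 (SE, adjusted p = 0.00524), COL5A1, a fibrillar collagen, by -0.19 ± 0.03 (SE, adjusted p = 0.00524) and IL11, a fibrogenic cytokine, by -0.36 ± 0.07 (SE, adjusted p = 0.0309). Against vehicle itself NPTX1 passed at 500 µg/mL, whereas TGM2 (-0.12), COL4A1 (-0.14), COL5A1 (-0.08) and IL11 (-0.05) did not. Of the other 17 extract groups, all had a higher mean of COL4A1 and of COL5A1 than Saengmaek-san 500, and 16 had a higher mean of TGM2, IL11 and NPTX1. Against the mean of 5 other extracts at 20 µg/mL 11 genes passed, these 5 and GPX1 among them (GPX1 -0.26). Both herbs at 20 µg/mL are part of that mean and of the 17 groups, and the Saengmaek-san 500 libraries are the same. Neither result is therefore separate support for the 5 genes.

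**Figure D5:**
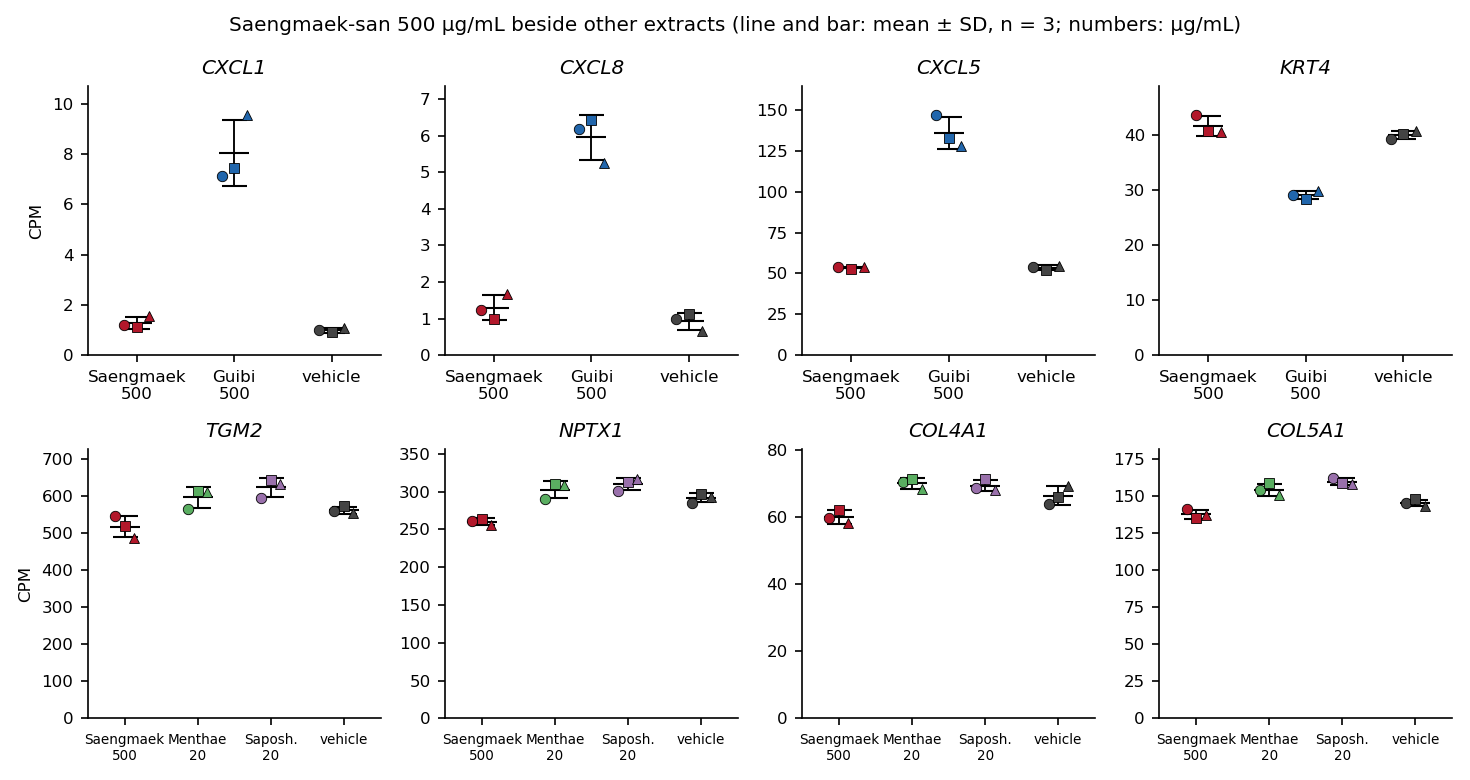
CPM (vertical axis, from 0) in each library: upper row, Saengmaek-san 500, Guibi-tang 500 and vehicle; lower row, Saengmaek-san 500, Menthae Herba 20, Saposhnikoviae Radix 20 and vehicle (µg/mL). Lines and bars are mean ± SD of 3 libraries. Guibi-tang 500 stands above the other groups for CXCL1, CXCL8 and CXCL5, and Saengmaek-san 500 lies below both herbs for all 4 genes of the lower row.

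Guibi-tang 500 was the extract at the same dose whose libraries share the first number of the library name with Saengmaek-san. Between them 173 genes passed (1.00%), 37 higher in Saengmaek-san 500 (0.214%) and 136 lower (0.788%). The count was 107 without Saengmaek-san 500 replicate 3, 115 without its replicate 2, and 109 and 115 without Guibi-tang 500 replicates 1 and 2. Of 20 chemokine and NF-kB genes 16 were lower in Saengmaek-san 500 and 0 higher, with a median of -1.01. CXCL5, a neutrophil chemokine, had 53.7, 53.03 and 53.8 CPM in Saengmaek-san 500 and 147, 133 and 128 CPM in Guibi-tang 500 (log2 difference -1.35 ± 0.05 SE, adjusted p = 1.41e-25). It had 54.2, 52.0 and 54.6 CPM in vehicle, so the Saengmaek-san 500 libraries lay at the vehicle level. CXCL1 averaged 1.28 ± 0.238 CPM in Saengmaek-san 500 and 8.04 ± 1.32 CPM in Guibi-tang 500 (-2.67 ± 0.20 SE), and CXCL8 averaged 1.299 ± 0.342 CPM in Saengmaek-san 500 and 5.95 ± 0.619 CPM in Guibi-tang 500 (-2.24 ± 0.17 SE).

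Of 18 keratin and junction genes 1 was called higher in Saengmaek-san 500 than in Guibi-tang 500 and 0 lower, against 0.214 and 0.788% of all genes. Outside that list KRT4, a keratin of stratified epithelium, averaged 41.7 ± 1.77 CPM in Saengmaek-san 500 and 29.1 ± 0.747 CPM in Guibi-tang 500 (0.52 ± 0.05 SE, adjusted p = 2.81e-09), with 40.0 ± 0.742 CPM in vehicle. TPPP3, C1orf116, TM4SF4 and ID4 were higher by 0.67, 0.61, 0.51 and 0.48. KLF2, BANP, RHOB and AMOTL2 differed by -0.01 ± 0.12, -0.04 ± 0.08, -0.06 ± 0.04 and 0.04 ± 0.04 between the decoctions, and GPX1 and SELENOW by -0.06 ± 0.06 and 0.01 ± 0.07 (SE). None of these 6 passed, which does not show that the decoctions act alike on them.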

How the data were processed

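RNA of A549 cells was read as 100-base pairs from a directional kit, per the labels' protocols. Per the submitters' processing notes the tools were FastQC 0.11.9, Trim Galore 0.6.5, STAR 2.7.3a and RSEM 1.3.3 on hg38, and the authors deposited 1 table of RSEM expected counts for 60675 genes in 60 libraries. The annotation release and the strand setting of the counting are not given in the sources used here. Expected counts were rounded to whole numbers (10.5% of values were not whole). Totals ran from 18330592 to 35308791. Symbols came from a gene-name table (56558 genes) or GENCODE 29 (497 genes), and 3620 genes had none (0.0703 to 0.0819% of counts).

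The 57 libraries of the 19 groups with 3 libraries were fitted together with edgeR 4.0.16 (R 4.3.3, limma 3.58.1; TMM scaling, filterByExpr, quasi-likelihood test), and p-values were adjusted by Benjamini-Hochberg over 17256 genes, with a threshold of 0.05. Standard errors (SE) were derived as the absolute log2 fold change divided by the square root of the quasi-likelihood F statistic, and are approximate. The 3 libraries of Soshiho-tang, 1 per dose, were left out. DESeq2 1.42.0 was an alternative, and the fit was tested on simulated counts. Leave-one-out fits drop 1 of the 6 libraries of the comparison. No 2 libraries of a group agreed within sampling noise.

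Named genes were, for the main comparison, the 12 highest and 12 lowest called genes that averaged at least 5 CPM in 1 group, had separate groups and had a symbol, the 6 of smallest adjusted p, and KLF2, GPX1 and AMOTL2. They were also up to 4 called members of each gene list, or 2 members of smallest p where none was called, and up to 5 genes in each direction for other comparisons. Further uncalled members of lists (such as GPX4, TXNRD1, ATF4, EGR1 and CDKN1A), and the 3 noncoding genes and CYP1A1, were named after their values were seen. The comparison, its genes and the 46 gene lists were chosen with earlier results of these data known.

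Same-numbered libraries of Saengmaek-san 500 and of 100 µg/mL had correlations of deviations from group means of 0.10, 0.23 and 0.37. With 20 µg/mL they were 0.12, 0.19 and 0.34. Replicates 1 and 2 also correlated across numbers (0.14 and 0.10 with 100 µg/mL, 0.06 and 0.13 with 20 µg/mL). Replicate 3, in the later section of the library order, correlated positively with replicate 3 alone. Pairing by number and the section of the library order therefore cannot be told apart. With the number as a block, 1 gene and 0 genes passed in these comparisons, against 0 and 0 without it.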

Additional observations from a re-analysis of the deposited data

Results flagged for a closer look

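Of the genes called in Saengmaek-san 500 against vehicle and named in the text, 3 also differed between Saengmaek-san 500 and Guibi-tang 500 by a direct test between the decoctions (edgeR, adjusted over all genes). BDKRB2 was lower in Saengmaek-san 500, at 26.1 CPM against 32.7 CPM in Guibi-tang 500 (log2 difference -0.3314, adjusted p = 0.0005575), and both lay above vehicle at 20.2 CPM. CCN1 was higher in Saengmaek-san 500, at 28.5 CPM against 24.1 CPM in Guibi-tang 500 (log2 difference 0.2414, adjusted p = 0.008932), and both lay below vehicle at 34.3 CPM. FOSL2 was lower in Saengmaek-san 500, at 124 CPM against 139 CPM in Guibi-tang 500 (log2 difference -0.1636, adjusted p = 0.01665), where vehicle held 140.3 CPM.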

How the results depend on the processing

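In Saengmaek-san 500 against vehicle, 106 genes passed. The count was 187 with no filter on low counts, 161 with DESeq2, 376 with the section of the library order as a covariate, 450 with the covariate and the replicate block, 388 with the earlier libraries only, 0 with the compared groups only, and 23 to 90 with 1 library left out. In 100 µg/mL against vehicle (115) it was 306 with no filter, 183 with DESeq2, 178 with the covariate and 23 to 127 with 1 library left out. In 20 µg/mL against vehicle (78) it was 214, 118, 169 and 17 to 68 in the same order. Between 500 and 20 µg/mL (0) it was 53 with no filter and 2 with DESeq2, and between 500 and 100 µg/mL (0) it was 102 with no filter, 2 with DESeq2, 1 with the covariate and 1 with the replicate block, with 0 in both under every left-out library. Against Guibi-tang 500 (173) it was 267 with the covariate and 107 to 154 with 1 library left out. Against the single herbs at 20 µg/mL (5) it was 287 with no filter, 17 with DESeq2, 9 with the covariate, 11 against 5 extracts and 1 to 5 with 1 library left out. The mitochondrial difference of 1.48 percentage points was -0.633 to 2.59 with 1 library left out, 2.158 as a share of nuclear coding counts and 1.18 over 13 messages. MT-ATP8 (0.47) turned to -0.01554 with the covariate and -0.07099 with covariate and replicate block. MT-ND1 (0.33) turned to -0.1262 in the earlier libraries, -0.08976 with the covariate, -0.1148 with covariate and replicate block, and ran from -0.1237 without Saengmaek-san 500 replicate 3 to 0.5166 without its replicate 1. The cause of these changes was not tested. Replicate numbers did not pair Saengmaek-san 500 with vehicle (correlations of -0.021, -0.029 and -0.020), and with the replicate block 112 genes passed. Depth limits calls for genes of few counts, such as CHAC1 with 65 counts in 1 library.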
